A study of Mus musculus with 18 samples.

Results

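A set of 10 genes whose transcripts mark brown adipocytes, the fat cells that burn fuel to make heat, were followed through skeletal muscle (SKM), white adipose tissue (WAT) and brown adipose tissue (BAT) of mice given quercetin or its vehicle. They were taken by name (Dio2, Elovl3, Prdm16, Ebf2, Cox7a1, Cox8b, Kcnk3, Otop1, Letmd1 and Bmp8b), and all 10 were found by Ensembl identifier among the 53465 genes of the count files. The animals were wild-type C57BL/6J mice on normal chow. Quercetin, a plant flavonol, was given by gavage at a dose of 0.125 mg/kg, dissolved in PBS with 10% PEG400 at a volume of 100 µL, and the vehicle groups received the PBS with PEG400 alone. The labels speak of long-term treatment. They give housing at 23 to 24 °C with 12 hours of light. For a lifespan part of the study they give 14 months as the age at its start. How old the sequenced mice were, their sex, the length of treatment and the white fat depot are not given in those labels. There were 6 groups, 1 per tissue and treatment, with 3 libraries each that are called replicates 1 to 3, and the 18 libraries held 8436308 to 12311345 counts in genes.

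Brown adipocytes release the energy of fatty acids as heat through the uncoupling protein Ucp1 in a dense population of mitochondria. Noradrenaline from sympathetic nerves acts on beta-adrenergic receptors and cyclic AMP, which releases fatty acids and switches on thermogenic genes. The 10 genes sit at different points of this programme. Dio2 activates thyroid hormone inside the cell and Elovl3 lengthens fatty acids. Prdm16 and Ebf2 are transcription regulators of brown fat identity. Cox7a1 and Cox8b are subunits of cytochrome c oxidase, complex IV of the respiratory chain, and Letmd1 is a mitochondrial protein. Kcnk3 is a potassium channel, Otop1 a proton channel, and Bmp8b a secreted factor.

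Promoters from RefSeq (build GRCm38.p6, 250 bases before to 50 after the RefSeq start, written 5′ to 3′ on the strand of the gene) were at hand for 7 of the 10 genes. The coordinates of the genes below are from GENCODE, whose starts can differ. The Dio2 window lies wholly upstream of the gene as given there. A set of 3 short motifs were searched on both strands: TCCCNNGGG, bound by EBF factors such as Ebf2, TNAAGGTCA, bound by estrogen-related receptors, and TGACGTCA, the cyclic AMP response element. The cyclic AMP element was in the promoter of 1 of the 7 genes, Dio2, and in 1.79% of all 32851 promoters of this length. The EBF motif was in 1 of the 7, Letmd1, and in 6.56% of all promoters, and the estrogen-related receptor motif was in 0 of the 7 and in 1.28% of all. No binding was measured, and a match or its absence describes the letters of these windows only. Promoters of 4 genes are shown: the 2 with a match, in capitals, and those of Cox7a1 and Cox8b, the 2 genes that skeletal muscle also held at high levels.
Dio2, chr12:90738989-90739288, minus strand, capitals mark the cyclic AMP element: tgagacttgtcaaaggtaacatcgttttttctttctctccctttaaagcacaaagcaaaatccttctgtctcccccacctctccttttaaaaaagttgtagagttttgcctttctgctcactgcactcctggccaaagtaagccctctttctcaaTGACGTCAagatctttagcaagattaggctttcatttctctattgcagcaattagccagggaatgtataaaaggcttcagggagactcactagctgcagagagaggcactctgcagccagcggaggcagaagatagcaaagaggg
Letmd1, chr15:100468761-100469060, plus strand, capitals mark the EBF motif at 2 places: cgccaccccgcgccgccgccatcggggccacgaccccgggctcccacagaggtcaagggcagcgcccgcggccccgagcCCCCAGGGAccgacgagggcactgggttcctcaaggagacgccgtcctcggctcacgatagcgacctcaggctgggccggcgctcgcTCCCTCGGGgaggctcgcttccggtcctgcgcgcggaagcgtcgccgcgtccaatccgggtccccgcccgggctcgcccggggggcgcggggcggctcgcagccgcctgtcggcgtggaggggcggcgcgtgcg
Cox7a1, chr7:30183921-30184220, plus strand, no match: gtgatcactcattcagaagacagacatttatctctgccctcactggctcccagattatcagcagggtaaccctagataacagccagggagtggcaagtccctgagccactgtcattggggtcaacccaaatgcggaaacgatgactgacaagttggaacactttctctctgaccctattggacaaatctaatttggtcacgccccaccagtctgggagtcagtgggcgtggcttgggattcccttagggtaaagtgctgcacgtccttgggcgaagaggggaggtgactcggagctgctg
Cox8b, chr7:140900397-140900696, minus strand, no match: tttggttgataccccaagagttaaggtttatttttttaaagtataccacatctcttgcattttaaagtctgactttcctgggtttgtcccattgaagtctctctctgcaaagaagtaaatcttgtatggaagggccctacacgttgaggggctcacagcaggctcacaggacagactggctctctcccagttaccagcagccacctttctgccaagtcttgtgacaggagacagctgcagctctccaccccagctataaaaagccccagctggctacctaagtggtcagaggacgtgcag
The windows differed in base composition, from 44.7% G and C in Dio2 to 79.0% in Letmd1, with 53.0% in Cox7a1 and 48.3% in Cox8b.

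Several libraries stood apart from their tissue, which touches the values below. Levels are CPM: each count is divided by the size of its library, scaled by TMM factors over the 18 libraries. The libraries labelled BAT carried the defining brown fat marker Ucp1 at 3735 to 4745 CPM in 5 of 6, and at 894 CPM in BAT quercetin 3. That library also held a summed 37227 CPM of 10 skeletal muscle markers, against 6.07 to 5825 in the other 5, and 275 CPM of leptin, against 10.4 to 43.3. In SKM quercetin 2, Ucp1 was at 279.7 CPM, where the other 5 muscle libraries reached 0.699 at most, and it had a summed 25038 CPM of 3 seminal vesicle genes, which were at 0 in those 5. SKM vehicle 3 held 471 CPM of the adipocyte hormone Adipoq, against 3.49 to 187 in the other 5. WAT vehicle 2 had the lowest Adipoq of the white fat libraries, 17.9 against 325 to 1100 CPM, with 258 CPM of the muscle actin Acta1 and 18.03 CPM of Ucp1. WAT vehicle 1 and quercetin 2 came from flow cell H7GKJDSXX, as did SKM quercetin 3, and the rest from H7H2WDSXX. These 2 white fat libraries had a summed 2.07 and 4.89 CPM of 8 B and T cell markers, against 768 to 2894 in the other 4. In bulk tissue, fewer cells of a type and less RNA per cell cannot be told apart.

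The comparison of tissues within vehicle mice asked how far each gene marks brown fat here. Of the 10 genes, 7 were higher in BAT than in WAT (edgeR quasi-likelihood test, adjusted p from 0.000721 to 0.0193), where 9.02% of the 16388 genes tested were called higher. Of the 10, 6 were higher in BAT than in SKM (adjusted p from 0.000624 to 0.0228), where 4.64% of genes were called higher. Dio2, Elovl3, Otop1, Letmd1 and Bmp8b passed in both comparisons. Cox7a1 and Cox8b passed against WAT and not against SKM, Kcnk3 against SKM and not against WAT, and Prdm16 and Ebf2 in neither. The estimates of all 10 were above 0 in both comparisons. Their median log2 fold change was 6.87 against WAT and 5.25 against SKM, or 6.32 and 5.25 with Bmp8b, which had no count in vehicle WAT and SKM, at its lower bound; the medians over all genes tested were -0.16 and 0.01. Without the 3 libraries with transcripts of another tissue (SKM quercetin 2, WAT vehicle 2 and BAT quercetin 3) the counts were again 7 and 6. Of all genes tested, 4.87% were then called higher in BAT than in WAT and 5.22% higher than in SKM. Of the 3 libraries left out, only WAT vehicle 2 is a vehicle library. BAT against SKM thus kept every library of both groups, and its count there does not bear on transcripts of another tissue. SKM vehicle 3, with its Adipoq, and BAT vehicle 1, with a summed 5825 CPM of muscle markers, stayed in. So did WAT vehicle 3, with a summed 1184 CPM of B and T cell markers, against 2.07 in WAT vehicle 1. Without WAT vehicle 1, the vehicle white fat library with the highest summed adipocyte markers, all 10 passed against WAT. The share of all genes called higher then rose to 13.8%. Without SKM vehicle 2 only Otop1 and Letmd1 passed against SKM, where that share fell to 1.29%.

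**Figure D1:**
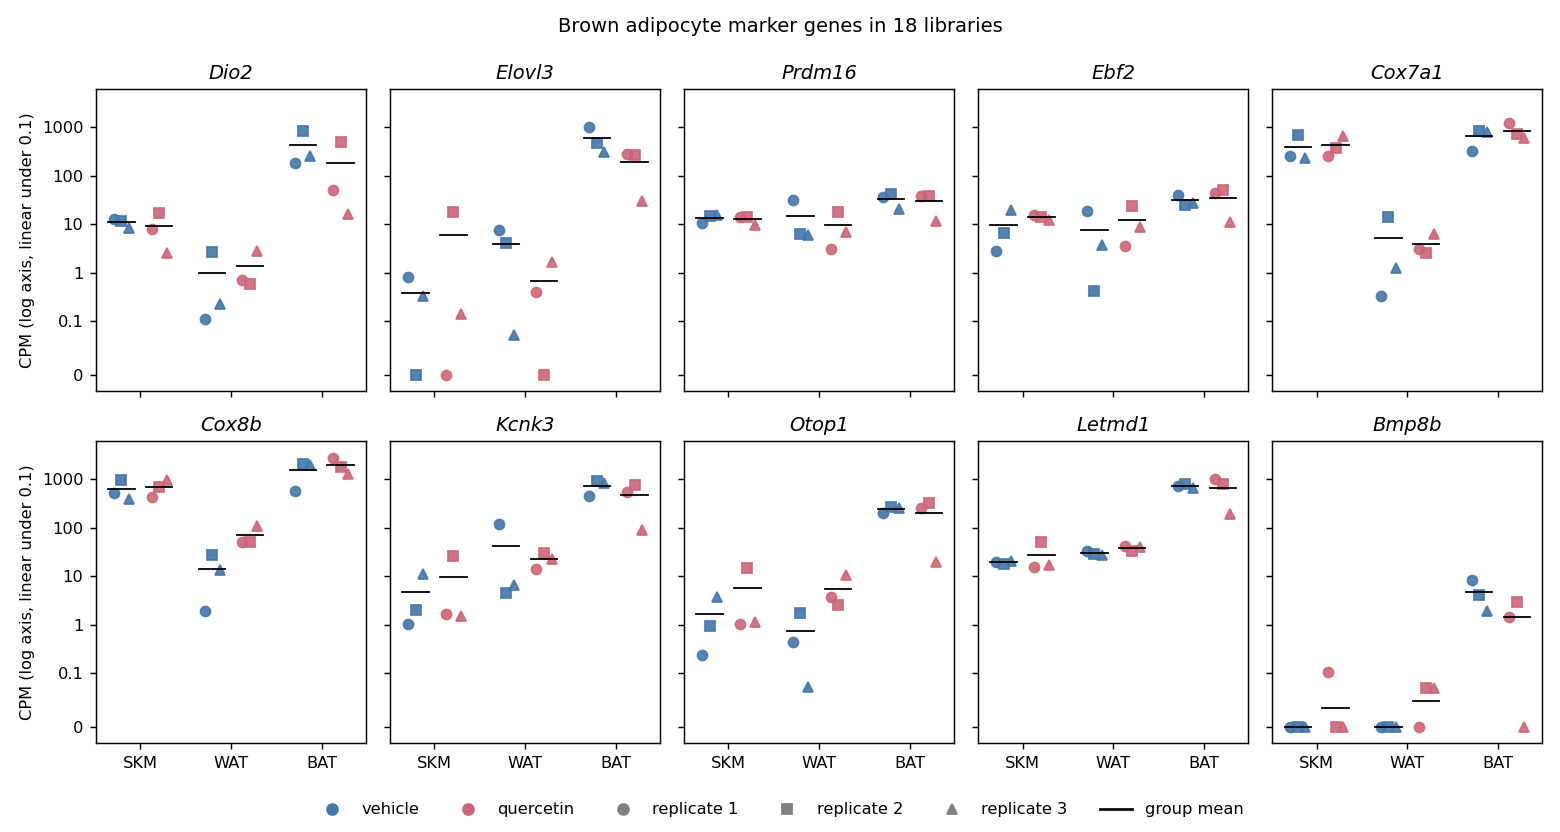
Levels of the 10 genes (CPM on a log axis, linear under 0.1) in the 18 libraries by tissue, with vehicle in blue and quercetin in red, 1 marker shape per replicate number and a black line at each group mean. Cox7a1 and Cox8b are high in both SKM and BAT and low in WAT, Prdm16 and Ebf2 stay under 50 CPM in every library, and BAT quercetin 3 (red triangle) is the lowest BAT library for Dio2, Elovl3, Prdm16, Ebf2, Kcnk3, Otop1, Letmd1 and Bmp8b.

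Dio2 (ENSMUSG00000007682, chr12:90724552-90738438, GRCm38, minus strand) encodes the deiodinase that makes active thyroid hormone. Its level in vehicle BAT was 180, 835 and 258 CPM in replicates 1, 2 and 3. In vehicle SKM it was 12.9, 11.8 and 8.15 CPM, and in vehicle WAT 0.109, 2.67 and 0.223 CPM. The order was BAT, SKM, WAT, with no overlap between the tissues. The log2 fold change was 8.69 ± 1.56 (SE) against WAT (adjusted p = 0.00272) and 5.28 ± 1.32 against SKM (adjusted p = 0.0228), and the step from SKM to WAT did not pass (-3.41, adjusted p = 0.0519). That step passed with the animal label of the titles as a block (-4.23, adjusted p = 0.0228) and with DESeq2 (adjusted p = 0.0101). It also passed with no filter on low counts (0.0278) and without WAT vehicle 2 (-5.91, adjusted p = 0.0229). The call against SKM was lost when any of SKM vehicle 1, 2 or 3 or BAT vehicle 2 or 3 was left out, with adjusted p from 0.0503 to 0.0866.

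Elovl3 (ENSMUSG00000038754, chr19:46131897-46135694, plus strand), an elongase of saturated very long chain fatty acids, was at 1010, 475 and 309.9 CPM in vehicle BAT. It was at 7.63, 4.01 and 0.0745 CPM in vehicle WAT and at 0.815, 0 and 0.323 CPM in vehicle SKM. Every vehicle BAT library was above every other vehicle library, and WAT and SKM overlapped. On the log2 scale the difference was 7.27 ± 1.94 against WAT (adjusted p = 0.0193) and 10.58 ± 2.27 against SKM (adjusted p = 0.0112). The call against WAT was lost without WAT vehicle 2 (adjusted p = 0.0738), WAT vehicle 3 (0.0637) or BAT vehicle 2 (0.0508), and that against SKM without SKM vehicle 2 (0.0520). Its relative Elovl6, which elongates palmitate, was at 740 ± 341 CPM in vehicle BAT (SD, n = 3), 15.3 ± 11.1 in WAT and 8.98 ± 12.4 in SKM, and was called higher in BAT in both comparisons (adjusted p = 0.0102 and 0.00951).

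Neither of the 2 transcription regulators passed between any 2 tissues. Prdm16 (ENSMUSG00000039410, chr4:154316125-154636873, minus strand), a zinc finger protein that drives the brown over the white fat programme, was at 36.0, 41.0 and 20.3 CPM in vehicle BAT. It was at 10.5, 14.6 and 15.2 CPM in vehicle SKM and at 31.5, 6.18 and 5.96 CPM in vehicle WAT. BAT lay above SKM in all vehicle libraries and overlapped WAT through WAT vehicle 1. The log2 difference was 1.16 (95% interval -0.29 to 2.61, adjusted p = 0.244) against WAT and 1.27 (-0.18 to 2.73, adjusted p = 0.265) against SKM.

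Ebf2 (ENSMUSG00000022053, chr14:67233292-67430918, plus strand), a factor of the EBF family that marks brown fat precursors, was at 40.2, 24.9 and 27.0 CPM in vehicle BAT. It was at 18.5, 0.417 and 3.73 CPM in vehicle WAT and at 2.79, 6.62 and 19.9 CPM in vehicle SKM. The vehicle BAT libraries were above all others, while WAT and SKM overlapped. The highest muscle value was that of SKM vehicle 3, the muscle library with the highest Adipoq. The fitted log2 fold change was 2.03 (-0.08 to 4.14, adjusted p = 0.160) against WAT and 1.64 (-0.44 to 3.72, adjusted p = 0.322) against SKM. Without WAT vehicle 1, the only vehicle white fat library of the other flow cell, the difference of BAT and WAT passed for Ebf2 (log2 3.87, adjusted p = 0.0153) and for Prdm16 (2.42, adjusted p = 0.0151). WAT vehicle 1 had a summed 46440 CPM of 8 adipocyte markers, against 768 in WAT vehicle 2 and 7605 in WAT vehicle 3. It had 2.07 CPM of 8 B and T cell markers, against 2437 and 1184. The part of these differences in the values was not tested.

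Cox7a1 and Cox8b had a shared pattern: high in BAT and SKM, low in WAT. Cox7a1 (ENSMUSG00000074218, chr7:30184144-30186078, plus strand), the heart and muscle form of subunit VIIa, was at 324, 837 and 789.9 CPM in vehicle BAT and at 256, 693 and 226 CPM in vehicle SKM. In vehicle WAT it was at 0.327, 14.0 and 1.27 CPM. The BAT and SKM libraries overlapped, and all of them were above the WAT libraries. The log2 fold change was 6.96 ± 1.15 for BAT against WAT (adjusted p = 0.00159), -6.23 ± 1.11 for WAT against SKM (adjusted p = 0.00167) and 0.73 (-1.15 to 2.61, adjusted p = 0.671) for BAT against SKM.

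Cox8b (ENSMUSG00000025488, chr7:140898945-140900446, minus strand), the heart and muscle form of subunit VIII, was at 584, 2101 and 1956 CPM in vehicle BAT. It was at 513, 958 and 392 CPM in vehicle SKM and at 1.96, 26.9 and 13.4 CPM in vehicle WAT. The order of the means was BAT, SKM, WAT, and BAT overlapped SKM through BAT vehicle 1. On the log2 scale the difference was 6.78 ± 0.92 for BAT against WAT (adjusted p = 0.0008), -5.46 ± 0.87 for WAT against SKM (adjusted p = 0.000801) and 1.32 (-0.23 to 2.86, adjusted p = 0.277) for BAT against SKM. Cox7a1 and Cox8b were the only 2 of the 10 genes called lower in WAT than in SKM, where 15.2% of all genes were called lower. In the same comparison 0 of the 10 were called higher, against 15.8% of all genes. Kcnk3 was higher in WAT than in SKM with DESeq2 (adjusted p = 0.0222) and without SKM vehicle 3 (adjusted p = 0.0466). Cox7a1 and Cox8b kept these calls in every alternative run.

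The muscle form of each subunit was also set against its partner form, as a share of the pair per kilobase of exon. Cox7a1 made up 75.1 to 79.9% of the summed Cox7a1 and Cox7a2 in the 6 SKM libraries and 62.2 to 76.9% in the 6 BAT libraries. In WAT it made up 0.696 to 30.9%, with the highest share in WAT vehicle 2. Cox8b made up 83.2 to 95.4% of Cox8b and Cox8a in SKM, 60.5 to 73.1% in BAT and 0.614 to 37.1% in WAT. Cox6a2, the muscle form of subunit VIa, made up 67.2 to 94.9% of Cox6a2 and Cox6a1 in SKM. It made up 0 to 3.59% in 5 BAT libraries and 20.6% in BAT quercetin 3, and 0.0584 to 3.06% in WAT. BAT thus held 2 of the 3 muscle forms at high shares, and the third at a low share in all but quercetin 3. That library had the highest summed muscle markers of the BAT libraries, 37227 CPM. BAT vehicle 1, with the Cox6a2 share of 3.59%, had the next highest sum, 5825 CPM. Among the partner forms, Cox8a and Cox6a1 were called higher in BAT than in WAT (log2 1.88 and 3.11, adjusted p = 0.0276 and 0.00672) and than in SKM (3.23 and 4.29, adjusted p = 0.00456 and 0.00295). The call of Cox8a against WAT was lost without WAT vehicle 2 or 3 or BAT vehicle 2 or 3 (adjusted p from 0.0847 to 0.1106), and those of Cox6a1 held with each library left out. Cox7a2 had the same calls as Cox7a1, with smaller differences: higher in BAT than in WAT (2.79, adjusted p = 0.000934), lower in WAT than in SKM (-1.70, adjusted p = 0.0066) and not called between BAT and SKM (1.10, adjusted p = 0.0852, or 0.0413 without SKM vehicle 2). Cox7a2l passed in neither comparison with BAT (0.39 and 0.38, adjusted p = 0.583 and 0.671).

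**Figure D2:**
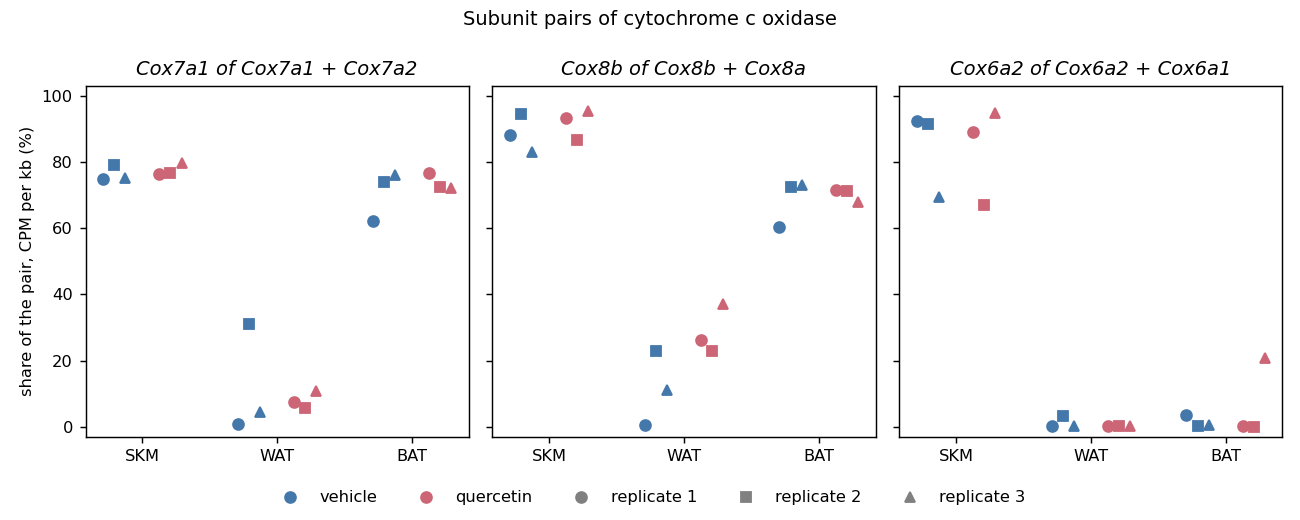
Share of the muscle form in 3 subunit pairs of cytochrome c oxidase (percent of the summed CPM per kilobase of exon) in each library, by tissue, with vehicle in blue and quercetin in red. Cox7a1 and Cox8b are at 60.5% or more in every SKM and BAT library, whereas Cox6a2 is at 67.2% or more in SKM and at most 20.6% in BAT, the latter in quercetin 3.

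Letmd1 (ENSMUSG00000037353, chr15:100469023-100479164, plus strand), a mitochondrial protein that mouse brown fat needs to keep its respiratory chain, had the tightest values. It was at 710, 790 and 669 CPM in vehicle BAT, at 33.6, 28.3 and 27.0 CPM in vehicle WAT and at 19.8, 17.6 and 20.7 CPM in vehicle SKM. The 3 tissues did not overlap in vehicle mice. The log2 difference was 4.61 ± 0.59 against WAT (adjusted p = 0.000721) and 5.22 ± 0.60 against SKM (adjusted p = 0.000624), and WAT against SKM did not pass (0.61, adjusted p = 0.375). Both BAT calls held in every alternative run. Its relative Letm1, a mitochondrial ion exchanger, was also called higher in BAT, by 2.89 against WAT and 2.12 against SKM on the log2 scale (adjusted p = 0.0009 and 0.007).

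Kcnk3 (ENSMUSG00000049265, chr5:30588170-30625271, plus strand), the two-pore channel TASK-1 that limits adrenergic depolarisation of brown adipocytes, was at 442, 927 and 831 CPM in vehicle BAT. It was at 117, 4.42 and 6.48 CPM in vehicle WAT and at 1.05, 2.05 and 10.9 CPM in vehicle SKM. BAT was above both tissues in all vehicle libraries, and WAT overlapped SKM. The fitted log2 fold change was 7.28 ± 1.62 against SKM (adjusted p = 0.0134). Against WAT it was 4.10 ± 1.40 and did not pass (adjusted p = 0.0512). It passed with DESeq2 (adjusted p = 0.0041), and without WAT vehicle 1 it was 7.07 (adjusted p = 0.005). The call against SKM was lost without SKM vehicle 1 or 2 (adjusted p = 0.0521 and 0.0609).

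Otop1 (ENSMUSG00000051596, chr5:38275972-38304217, plus strand), a proton channel first known from the inner ear, was at 199, 273 and 249.5 CPM in vehicle BAT. It was at 0.233, 0.962 and 3.71 CPM in vehicle SKM and at 0.436, 1.75 and 0.0745 CPM in vehicle WAT. Vehicle BAT was above all other vehicle libraries, and SKM overlapped WAT. The log2 fold change was 8.29 ± 1.53 against WAT (adjusted p = 0.00325) and 7.14 ± 1.45 against SKM (adjusted p = 0.0086). Both calls held in every alternative run.

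Bmp8b (ENSMUSG00000002384, chr4:123105165-123132099, plus strand), a bone morphogenetic protein that raises the response of mouse brown fat to adrenergic input, was the lowest of the 10. It had 84, 29 and 17 counts in the vehicle BAT libraries, or 8.42, 4.19 and 1.89 CPM, and 0 counts in all vehicle WAT and SKM libraries. Against 3 counts over the group, vehicle BAT was at least 57.8-fold higher than WAT (adjusted p = 0.0103) and at least 49.0-fold higher than SKM (adjusted p = 0.0164). The bounds cover counting error only. The call against SKM was lost without SKM vehicle 2 or BAT vehicle 2 (adjusted p = 0.0523 and 0.0505). Bmp8b shares 12.2% of its exon bases with other counted genes on the opposite strand, Ebf2 6.12% and Kcnk3 5.76%. For the counting, the strand setting was not given in the sources used here, so reads of such partners cannot be told apart. Bmp8a, its neighbour in sequence (74.3% identity over 2053 aligned bases of the longest coding transcripts), had the opposite pattern, with 0 counts in the vehicle BAT libraries, 0 to 1.17 CPM in vehicle WAT and 1.16 to 3.25 CPM in vehicle SKM. In vehicle mice, neither gene had a count in the tissue where the other was highest: Bmp8a had 10, 27 and 29 counts in SKM.

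**Figure D3:**
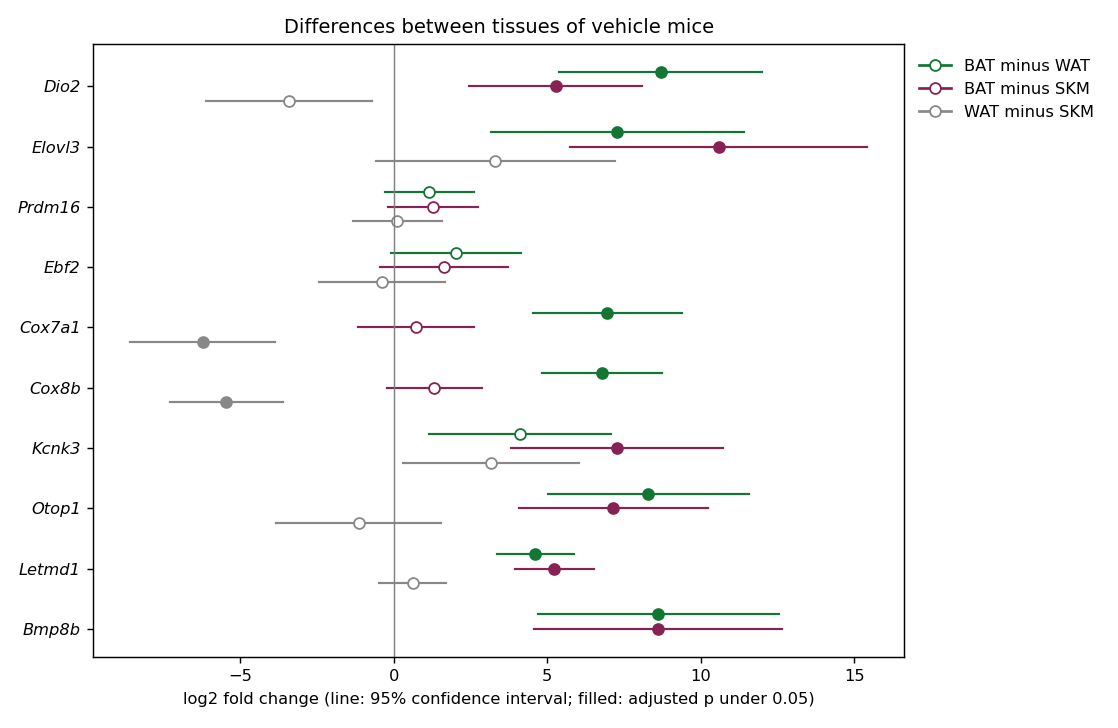
Log2 fold change between tissues of vehicle mice for each gene (points) with its 95% confidence interval (lines), where filled points passed an adjusted p of 0.05. BAT minus WAT (green) is filled for 7 genes and BAT minus SKM (purple) for 6, and WAT minus SKM (grey) is filled for Cox7a1 and Cox8b only. Bmp8b has no grey point, as it had 0 counts in both groups.

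In vehicle mice, BAT was above WAT in every library for 9 of the 10 genes, where 16.6% of all genes tested showed this, and above SKM for 8 of the 10, where 15.9% did. Per kilobase of exon, the order within vehicle BAT ran from Cox8b at 4298 ± 2326 CPM per kb (SD, n = 3) and Cox7a1 at 1215 ± 530.2 through Elovl3 at 303 ± 185, Kcnk3 at 184 ± 64.5 and Letmd1 at 149 ± 12.8. Dio2 at 73.0 ± 61.5 and Otop1 at 69.9 ± 11.01 followed, and Ebf2 at 4.43 ± 1.199, Prdm16 at 3.48 ± 1.16 and Bmp8b at 1.25 ± 0.854 were the lowest. By mean ± SD, these neighbours overlapped: Elovl3 and Kcnk3, Kcnk3 and Letmd1, Dio2 and Otop1, and Ebf2 and Prdm16. The genes also differed in how evenly BAT libraries held them. Over the 5 BAT libraries other than quercetin 3, the highest value was 1.51 times the lowest for Letmd1, 1.62 for Otop1 and 1.27 for Ucp1. It was 5.95 times the lowest for Bmp8b and 16.9 times for Dio2.

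Other genes of the brown fat programme, from lists drawn up with earlier results of these data known, were counted in the same comparisons. Over all genes tested, 9.02% were called higher and 9.93% lower in BAT than in WAT, and 4.64% higher and 5.67% lower in BAT than in SKM. Of 9 genes of uncoupling and lipid oxidation, 8 were called higher in BAT than in WAT and 4 higher and 1 lower than in SKM. Fabp3, a fatty acid binding protein, and Cpt1b, which carries fatty acids into mitochondria, were higher in BAT than in WAT by 7.66 and 6.35 on the log2 scale (adjusted p = 0.0032 and 0.00205). Both were lower in WAT than in SKM, with log2 fold changes of -7.37 and -4.86 (adjusted p = 0.00229 and 0.00432), the same tissue order as Cox7a1 and Cox8b. Ucp1 averaged 4148 ± 388 CPM in vehicle BAT, 6.23 ± 10.2 in WAT and 0.461 ± 0.207 in SKM, and was called higher in BAT in both comparisons (adjusted p = 0.0321 and 0.0219). With 1 library left out, the call against WAT was lost in 5 of 6 fits (adjusted p from 0.0512 to 0.1009) and held without WAT vehicle 2. That against SKM was lost in 5 of 6 as well (0.0532 to 0.0798) and held without BAT vehicle 1.

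Of 16 regulators, 7 were called higher in BAT than in WAT and 5 higher than in SKM, with 0 called lower in either. Ppargc1a, the coactivator of mitochondrial biogenesis, was at 57.4 ± 42.3 CPM in vehicle BAT, 64.4 ± 52.7 in SKM and 1.44 ± 0.388 in WAT, and was called higher in BAT than in WAT (adjusted p = 0.00147). The estrogen-related receptors Esrrg and Esrrb were higher in BAT than in WAT by 5.53 and 5.66 on the log2 scale (adjusted p = 0.00499 and 0.00591) and lower in WAT than in SKM, at -6.18 and -6.04 (adjusted p = 0.00184 and 0.0026). Zic1, a zinc finger gene of classical brown fat, was at 10.2 ± 1.35 CPM in vehicle BAT, 0.889 ± 0.748 in SKM and 0 in WAT, and passed in both comparisons (adjusted p = 0.00108 and 0.0238). Lhx8, another such marker, passed against SKM (adjusted p = 0.0178). With 1 library left out, the call against SKM was lost in 4 of 6 fits for Zic1 (all but those without SKM vehicle 3 or BAT vehicle 1, adjusted p from 0.0574 to 0.0798) and without SKM vehicle 1 or 2 for Lhx8 (0.0599 and 0.0672).

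Of 14 adrenergic and thyroid genes, 13 were tested, and 2 were called higher in BAT in each comparison. Adcy3, an adenylyl cyclase that makes cyclic AMP, was higher against WAT and SKM by 4.09 and 5.10 on the log2 scale (adjusted p = 0.023 and 0.0166). Prkaca, the catalytic subunit of protein kinase A, passed against WAT (2.12, adjusted p = 0.00298), and the receptor Adrb1 against SKM (5.40, adjusted p = 0.0182). With 1 library left out, Adcy3 lost its call against WAT in 4 of 6 fits (all but those without WAT vehicle 1 or BAT vehicle 1, adjusted p from 0.0551 to 0.0899) and against SKM without SKM vehicle 1 or 2 or BAT vehicle 2 (0.0505 to 0.0695). Adrb1 lost its call in 4 of 6 (all but those without SKM vehicle 3 or BAT vehicle 1, 0.0549 to 0.0681), and that of Prkaca held in all 6. Of 12 genes of BMP signalling and secreted factors, 0 were called against WAT and 2 were called lower than in SKM, Bmp8a and the receptor Bmpr1b (adjusted p = 0.0244 and 0.0328). The call of Bmp8a held only without SKM vehicle 1 or 3 (otherwise 0.0554 to 0.0867), and that of Bmpr1b only without SKM vehicle 1 (otherwise 0.0567 to 0.1332). Of 8 genes of futile cycles, 1 was called higher against WAT and 2 against SKM; Ryr2, a calcium release channel, passed in both (adjusted p = 0.0162 and 0.0339). Its call against SKM was lost whichever of the 6 libraries was left out (0.0579 to 0.1042), and that against WAT without WAT vehicle 2 or 3 or BAT vehicle 2 (0.0577 to 0.0666). Of 8 beige fat markers, 7 were tested, and 2 were called lower in BAT than in WAT: Hoxc9, a homeobox gene of posterior fat, with a log2 fold change of -7.47, and Tmem26 with -4.37 (adjusted p = 0.0008 and 0.0244). The call of Tmem26 held only without WAT vehicle 1 (otherwise 0.0622 to 0.1011), and that of Hoxc9 held in all 6 fits. Against SKM, 1 was called higher, the amino acid transporter Slc36a2 (4.60, adjusted p = 0.0494). Its call was lost with the animal label as a block (adjusted p = 0.0503). It was also lost in 5 of 6 fits with 1 library left out, all but that without SKM vehicle 3. Against SKM, 2 were called lower, Hoxc9 (-8.74, adjusted p = 0.000624) and Tbx1 (-6.77, adjusted p = 0.00527). Of 22 paralogs of the 10 genes, 17 were tested, with 5 called higher and 1 lower in each comparison with BAT.

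The quercetin comparison asked whether the treatment moved these genes within a tissue. No gene passed the threshold in any tissue with edgeR, so 0% of genes and 0 of the 10 were called in SKM, WAT and BAT. In SKM 13562 genes were tested, of which 406 had an unadjusted p under 0.05, in WAT 14919 and 122, and in BAT 13274 and 241. DESeq2 called 7, 6 and 3 genes in the same order. Of the 10 genes, 8 were tested in SKM (not Elovl3 and Bmp8b), 8 in WAT (not Dio2 and Bmp8b) and 10 in BAT. Their median log2 fold change was 0.29 in SKM, -0.01 in WAT and -0.24 in BAT, against medians of -0.03, -0.01 and 0.05 over all genes tested. For 3 libraries against 3, the smallest two-sided p of an exact permutation test on 1 gene is 0.1.

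In BAT, Elovl3 was at 277, 264 and 30.3 CPM in quercetin 1, 2 and 3, below the 309.9 to 1010 CPM of the vehicle libraries. It was the only 1 of the 10 genes whose arms did not overlap in BAT, where 6.19% of the genes tested had arms apart. Its log2 fold change was -1.69 ± 0.81 (95% interval -3.58 to 0.21, unadjusted p = 0.0738, adjusted p = 0.977 by edgeR). Without quercetin 3 it was -1.18. Dio2 was at 49.5, 485 and 16.2 CPM with quercetin, which overlapped the vehicle libraries, and its log2 fold change was -1.22 (-3.997 to 1.55). It was -0.25 without vehicle 2 and -3.71 without quercetin 2. Bmp8b had 10, 29 and 0 counts with quercetin and a log2 fold change of -1.75 (-4.36 to 0.86).

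The regulators and complex IV subunits in BAT had small estimates. Prdm16 was at 38.0, 38.5 and 11.6 CPM with quercetin (log2 fold change -0.16, interval -1.29 to 0.96), and Ebf2 at 44.4, 49.4 and 10.97 CPM (0.16, -1.05 to 1.38). Cox7a1 was at 1223, 713 and 599.5 CPM (0.37, -0.71 to 1.46) and Cox8b at 2760, 1761 and 1302 CPM (0.32, -0.96 to 1.60). Quercetin 1 was the highest BAT library for both subunits and vehicle 1 the lowest.

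The channels and Letmd1 in BAT had 1 low quercetin library. Kcnk3 was at 545, 778 and 88.8 CPM (-0.66, -2.31 to 0.997), Otop1 at 251, 322 and 19.3 CPM (-0.31, -2.20 to 1.58) and Letmd1 at 1011, 814 and 191 CPM (-0.13, -1.43 to 1.17). Without quercetin 3, the estimates of Otop1, Letmd1 and Prdm16 turned to 0.22, 0.30 and 0.21. That of Kcnk3 ran from -1.24 to -0.17 with single libraries left out.

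**Figure D4:**
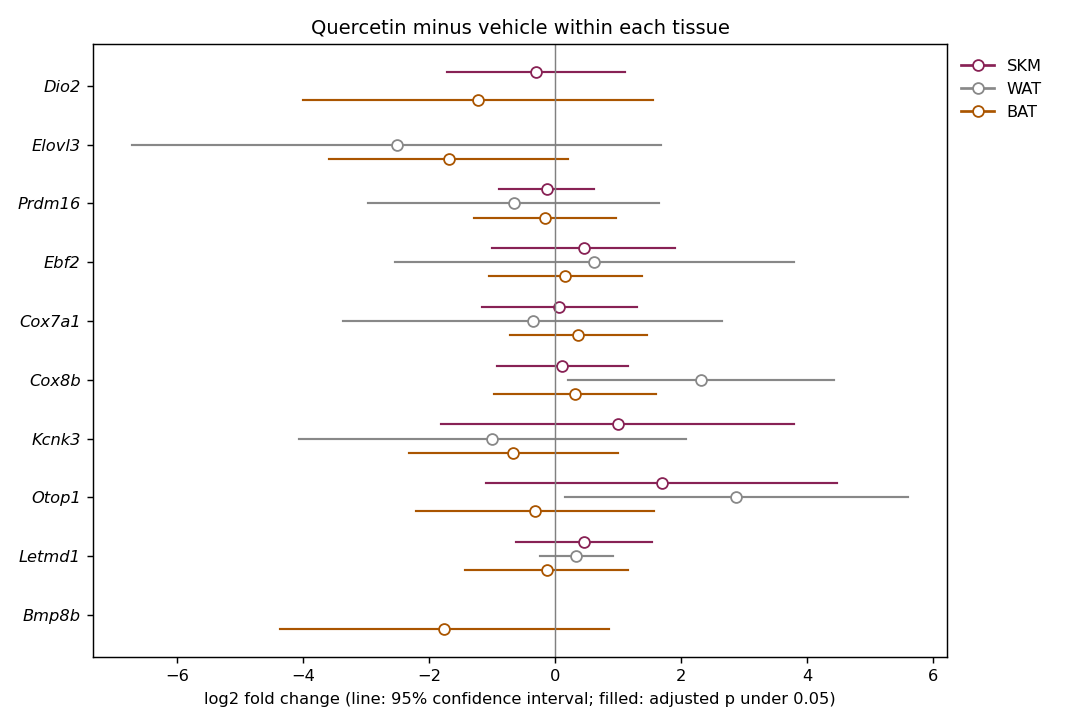
Log2 fold change of quercetin minus vehicle for each gene (points) with its 95% confidence interval (lines) in SKM, WAT and BAT. All points are open, as 0 of them passed an adjusted p of 0.05, and the intervals of Cox8b and Otop1 in WAT lie above 0 before adjustment.

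BAT quercetin 3 did not hold the 10 genes in equal proportion. Relative to the mean of the other 5 BAT libraries, Ucp1 was at 20.6% and Cidea, a lipid droplet protein of brown fat, at 25.2%. Dio2 was at 4.48%, Elovl3 at 6.48%, Otop1 at 7.47%, Kcnk3 at 12.6% and Letmd1 at 24.0%. Ebf2 was at 29.5% and Prdm16 at 33.3%, and Cox8b and Cox7a1, which muscle also holds, at 71.0% and 77.1%. Bmp8b had 0 counts there. SKM quercetin 2 was the reverse case, a muscle library with 6.44% of the BAT level of Ucp1 and 7.24% of that of Cidea. It held 17.4 CPM of Elovl3, where the rest of the muscle libraries reached 0.815, 14.9 CPM of Otop1 against at most 3.71, and 50.5 CPM of Letmd1 against at most 20.7. These 3, Kcnk3 and Dio2 lay between 3.71 and 6.32% of their BAT level. Prdm16, Ebf2, Cox7a1 and Cox8b lay between 38.0 and 46.8%, and Bmp8b was at 0. With the median of the remaining SKM libraries taken off, Elovl3, Kcnk3, Letmd1 and Otop1 were at 3.68, 3.47, 4.12 and 5.34%. Dio2, Ebf2 and Prdm16 were then at 2.48, 5.81 and 0.07%, and Cox8b and Cox7a1 at 9.98 and 13.8%. Ucp1 and Cidea were at 6.44 and 7.15% by that measure. The part of the other tissue's transcripts in these values was not tested.

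**Figure D5:**
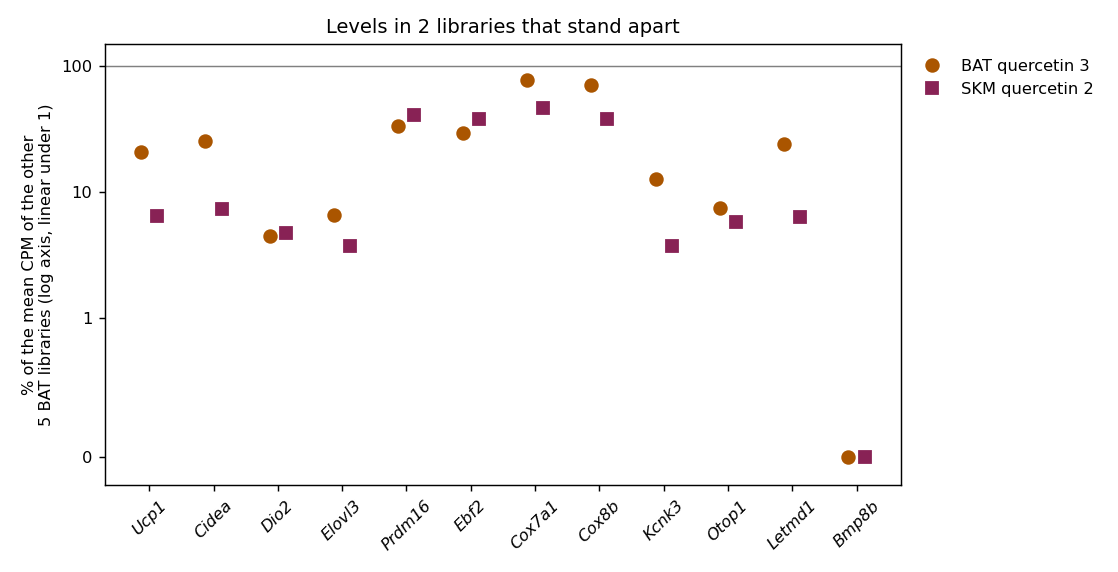
Level in BAT quercetin 3 (orange circles) and SKM quercetin 2 (purple squares) as a percentage of the mean CPM of the other 5 BAT libraries, on a log axis that is linear under 1. In BAT quercetin 3, Cox7a1 and Cox8b are at 77.1 and 71.0% while Dio2, Elovl3 and Otop1 are at 7.47% or less, and Bmp8b is at 0 in both libraries.

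In WAT, Cox8b was at 51.7, 50.4 and 106 CPM in quercetin 1, 2 and 3, above the 1.96, 26.9 and 13.4 CPM of the vehicle libraries. Otop1 was at 3.65, 2.55 and 10.4 CPM with quercetin, above the 0.436, 1.75 and 0.0745 CPM with vehicle. These were 2 of the 8 genes tested, and in WAT 4.44% of all genes tested had arms apart. On the log2 scale the difference was 2.33 ± 0.87 for Cox8b (95% interval 0.22 to 4.44, unadjusted p = 0.0356 by edgeR) and 2.88 ± 1.12 for Otop1 (0.16 to 5.603, unadjusted p = 0.0413 by edgeR), and neither passed after adjustment (adjusted p = 0.9998 for both). Within flow cell H7H2WDSXX, 2 libraries against 2, the estimates were 1.94 and 2.93. Leaving out single libraries gave 1.81 to 3.13 for Cox8b and 2.05 to 4.39 for Otop1. The highest white fat library of both, quercetin 3, was below every BAT library, including the 19.3 CPM of Otop1 in BAT quercetin 3.

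Other brown fat markers overlapped between the arms in WAT. Ucp1 was at 0.794, 0 and 6.81 CPM in the quercetin and 0.436, 18.03 and 0.223 CPM in the vehicle WAT libraries, and Cidea at 29.7, 11.7 and 62.8 against 33.6, 21.6 and 2.16 CPM. Cox7a1, which shared the tissue pattern of Cox8b, was at 3.10, 2.48 and 6.23 CPM with quercetin (log2 fold change -0.35, interval -3.36 to 2.66) and turned to 2.22 without WAT vehicle 2. Letmd1 was at 41.5, 32.7 and 39.8 CPM with quercetin against 27.0 to 33.6 with vehicle (0.34, -0.24 to 0.92).

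Elovl3 was at 0.397, 0 and 1.67 CPM in quercetin WAT (-2.51, -6.71 to 1.69), with estimates from -4.29 to -1.50 when single libraries were left out. Prdm16 was at 3.10, 18.02 and 7.03 CPM (-0.66, -2.96 to 1.65), Ebf2 at 3.57, 23.5 and 8.76 CPM (0.63, -2.54 to 3.79) and Kcnk3 at 14.1, 29.9 and 22.7 CPM (-0.99, -4.06 to 2.08). Within each arm, Prdm16, Ebf2 and Kcnk3 were highest in the library of flow cell H7GKJDSXX. Dio2 was at 0.715, 0.584 and 2.75 CPM in quercetin WAT, and Bmp8b had 2 counts in all in quercetin WAT.

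In SKM, no gene of the 10 had arms apart, where 9.25% of the genes tested did. Cox7a1 was at 252, 364 and 644 CPM with quercetin (0.07, -1.16 to 1.30) and Cox8b at 431, 696 and 949 CPM (0.12, -0.91 to 1.16), both within reach of the vehicle libraries. Dio2 was at 7.84, 17.1 and 2.51 CPM (-0.30, -1.72 to 1.11) and Prdm16 at 14.1, 14.1 and 9.47 CPM (-0.13, -0.88 to 0.62). Ebf2 was at 15.5, 14.1 and 12.0 CPM (0.45, -1.003 to 1.91), and its estimate ran from 0.026 to 1.53 with single libraries left out. The estimates of Otop1 (1.70), Kcnk3 (0.99) and Letmd1 (0.46) turned to -0.65, -1.58 and -0.30 without SKM quercetin 2. Bmp8b had 1 count in quercetin SKM.

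Whether the quercetin effect differed from tissue to tissue was tested as well, and 0% of the 16388 genes passed for BAT against WAT, BAT against SKM or WAT against SKM, including 0 of the 10. At an unadjusted p under 0.05 there were 173, 223 and 231 genes, and DESeq2 called 9, 2 and 7. Among the 10, Elovl3 had the smallest unadjusted p, for BAT against SKM and for WAT against SKM (0.0338 and 0.0217 by edgeR). SKM quercetin 2 is the library that held Elovl3 in muscle, and its part in these values was not tested.

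Across the 18 libraries the 10 genes followed each other to different degrees. Pearson's r of log2 CPM over the 45 pairs ran from 0.215 for Cox7a1 and Kcnk3 to 0.960 for Cox7a1 and Cox8b, with a median of 0.662; the libraries share tissues, so r mainly describes the tissue pattern. Of 16378 other genes, those closest to the mean of the 10 were Pafah2 (r = 0.976), Lgr6, 2810030D12Rik, Letm1, Hadhb, Hadh, Hsdl2 and Decr1 (r = 0.962). Hadhb, Hadh and Decr1 encode enzymes of mitochondrial fatty acid oxidation, and Hadhb was at 3100.4 ± 484 CPM in vehicle BAT, 436 ± 69.9 in SKM and 109.6 ± 64.9 in WAT. The single gene closest to Otop1 was Cidea (r = 0.953), to Elovl3 the fatty acid transporter Slc27a2 (0.962), to Dio2 the mitochondrial import factor Chchd4 (0.949) and to Cox8b the complex I assembly factor Ndufaf1 (0.952). For Cox7a1 it was the mitochondrial ribosomal protein Mrpl42 (0.980), for Prdm16 Luzp1 (0.955), for Ebf2 the convertase Pcsk6 (0.966), for Kcnk3 4931406C07Rik (0.978), for Letmd1 Gm15241 (0.977) and for Bmp8b Fam131c (0.954).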

How the data were processed

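The data were HTSeq-type gene counts of total RNA from 18 libraries. The deposited files hold raw counts per Ensembl gene, made by the authors with HISAT2 and HTSeq on build mm10 per the submitters' processing notes, which also name DESeq2; versions, annotation and strand setting: not given in the sources used here. Reads without a feature were 2.53 to 9.11% of a library and ambiguous reads 6.47 to 9.84%. Symbols, exons and coordinates came from GENCODE M21 (GRCm38). Replicates differed by at least 27.0 in chi-square per degree of freedom, so none was a copy.

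Groups came from the labels. Counts were tested with edgeR 4.0.16 in R 4.3.3: filterByExpr (minimum count 10, minimum total 15), TMM, quasi-likelihood F test, two-sided, Benjamini-Hochberg over all genes tested, threshold 0.05. Quercetin was compared with vehicle in each tissue by itself (6 libraries); tissues and the differences between tissues were contrasts of 1 fit of 18 libraries. SE is the log2 fold change over the root of F, and intervals are 95% and unadjusted. CPM are scaled by TMM over the 18 libraries; levels between genes are CPM per kilobase of merged exons. The labels do not say that libraries are separate animals beyond their numbered titles, so the spread behind a p-value, which may be technical, is that between libraries. Deviations of same-numbered vehicle libraries correlated at 0.125 to 0.257 between BAT and SKM (3 of 3 over 0.1). The range was 0.178 to 0.298 between WAT and SKM (3 of 3) and 0.053 to 0.187 between BAT and WAT (2 of 3). For quercetin libraries it was -0.136 to 0.149 between BAT and SKM (2 of 3 over 0.1). Between WAT and SKM it was -0.029 to 0.107 there (1 of 3), and between BAT and WAT -0.133 to 0.019 (0 of 3). Whether the numbers, which come from the titles, pair the libraries was not tested. As a check of the code, the fits were run on simulated counts with known changes. The simulation had no other tissue differences and no mixed libraries, so it does not give the power of the tests in these data. DESeq2 1.42.0, other normalisation, no filter, left-out libraries, 1 flow cell and a block were alternatives.

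The members, lists and tests were chosen with earlier results of these data known. All 10 genes were named; in each other list up to 4 genes that passed with the smallest p could be named, together with the subunit partners, Bmp8a, Ucp1 and the genes nearest in pattern by Pearson's r. Of the 10 symbols of the uncoupling list, 9 had a match.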

Additional observations from a re-analysis of the deposited data

How the results depend on the processing

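With DESeq2 the quercetin calls were 7 in SKM, 6 in WAT and 3 in BAT, where edgeR gave 0, and without the filter on low counts 32 in SKM. DESeq2 called 2761 genes between BAT and SKM against 1689, and 9, 2 and 7 for the differences of the quercetin effect (BAT and WAT, BAT and SKM, WAT and SKM). Within flow cell H7H2WDSXX, 5264 genes differed between BAT and WAT against 3106. Without SKM quercetin 2, WAT vehicle 2 and BAT quercetin 3 together, an alternative chosen after seeing the data, 1193 differed between BAT and WAT and 3360 between WAT and SKM against 5076. Leaving out single libraries gave 892 to 5094 genes for BAT and WAT, 400 to 1892 for BAT and SKM, 3340 to 6118 for WAT and SKM and 0 to 1 for quercetin in BAT. Of the 10 genes it left 6 to 10 higher in BAT than WAT, where 4.3 to 13.8% of all genes were called higher. It left 2 to 6 of the 10 higher in BAT than SKM, where that share was 1.23 to 5.2%. Within quercetin mice 8 and 4 of the 10 were higher, where the shares of all genes were 9.93% and 5.58%. With the replicate number as a block, 0 genes passed for quercetin in each tissue, and with the animal label as a block 2372, 1523 and 4908 differed between BAT and WAT, BAT and SKM and WAT and SKM. Between arms, correlations of same-numbered deviations ran from -0.699 to 0.266 (2 of 9 over 0.1). The block moved no count of calls between tissues by over 1.5 times; among the 10 genes it changed the call of Dio2 between WAT and SKM and no other.

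Of 1482 single-gene values under alternatives, 1309 kept direction and call, 109 lost and 25 gained the call and 39 changed sign; the cause was not tested. Among quercetin estimates, none of which passed, the block gave 1.204 for Cox7a1 and 0.88 for Kcnk3 in WAT and -0.037 for Ebf2 in BAT. Flow cell H7H2WDSXX alone gave 1.71 for Kcnk3 in WAT and, in SKM, 0.14 for Dio2, 0.031 for Prdm16, -0.39 for Cox7a1 and -0.19 for Cox8b. Leaving out single libraries in SKM gave -1.10 to 0.14 for Dio2, -0.27 to 0.031 for Prdm16, -0.39 to 0.76 for Cox7a1, -0.19 to 0.57 for Cox8b, -1.58 to 2.61 for Kcnk3, -0.65 to 3.18 for Otop1 and -0.30 to 0.75 for Letmd1. In WAT it gave -1.58 to 0.67 for Prdm16, -0.36 to 2.53 for Ebf2, -0.91 to 2.22 for Cox7a1 and -1.53 to 2.04 for Kcnk3. In BAT it gave -0.42 to 0.21 for Prdm16, -0.17 to 0.58 for Ebf2, -0.078 to 0.62 for Cox8b, -0.87 to 0.22 for Otop1 and -0.53 to 0.30 for Letmd1. Between WAT and SKM, left-out libraries gave -1.14 to 0.46 for Prdm16, -2.23 to 0.67 for Ebf2 and -2.81 to 0.34 for Otop1. There, Prdm16 was -0.27 with the block, -1.16 in the 1 flow cell and -0.42 within quercetin mice, Elovl3 was -3.05 within quercetin mice, and Ebf2 was 0.17 without the 3 libraries named above. DESeq2 gave no adjusted p for Ucp1 in BAT against WAT and SKM and for Kcnk3 with quercetin in SKM. Depth limits the precision of Bmp8b, which had 0 to 84 counts per library.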
